A study of Rattus norvegicus with 25 samples.

Results

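NRF2, encoded by Nfe2l2, is the transcription factor that switches on antioxidant and detoxifying genes when a cell meets oxidants or electrophiles. In unstressed cells KEAP1 holds NRF2 in the cytoplasm and hands it to a ubiquitin ligase, and modified KEAP1 lets NRF2 build up and bind antioxidant response elements together with small MAF proteins. Much of this control acts on the protein, so the mRNA of Nfe2l2 is not a measure of NRF2 activity, and the mRNA of its targets is the usual readout. The 10 genes Nfe2l2, Keap1, Hmox1, Nqo1, Gclc, Gclm, Txnrd1, Srxn1, Slc7a11 and Gsr were followed in rat gingiva, the gum tissue around the teeth, by bulk RNA-seq. They were picked by name as the factor, its inhibitor and 8 well-known targets, and 9 of the 10 were found by symbol among 30547 genes, of which 16092 were kept for testing. All 9 were kept. Srxn1 had no row under its symbol and was read from a row that the table ties to the same NCBI gene, described last.

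The samples came from wild-type Sprague-Dawley rats, 5 in each of 5 groups. The labels give an age of 6 weeks, while the methods of the study give an older one. Sham rats received a blank hydrogel. In the experimental periodontitis (EP) group a ligature around the teeth and Porphyromonas gingivalis, an oral bacterium, induced the disease, and the sources used here do not say whether these rats also received blank gel. The other 3 groups had the same periodontitis and were given hydrogel with curcumin, a plant polyphenol (Cur gel), with zinc oxide nanoparticles (ZNP gel) or with both (Cur/ZNP gel), 200 μL a week for 4 weeks. The combined gel shared the same total drug concentration between both agents, so each single agent was at a lower dose there than in its own gel.

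Total reads ranged from 50690789 to 81791804 per library, with a median of 62227570. Values are read counts divided by the size factor of each library (normalized counts). All 9 keratinocyte markers were detected in every library. In 3 libraries, Sham 4, EP 3 and EP 4, genes of nasal glands took 16.6% to 21.8% of the reads, against at most 0.1034% in the other 22. Sham 1, Sham 3, Sham 4 and Cur/ZNP gel 2 carried autonomic neuron transcripts at a summed level of 32801.2 to 98570.6, against at most 1185.4 in the other 21. As these are bulk samples, fewer cells of a type and less RNA per cell cannot be told apart.

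The antioxidant response element core TGACNNNGC, read on either strand, was looked up in the promoters that RefSeq gives for rat build GRCr8, each from 250 bases before to 50 bases after a transcription start. Promoters were listed for 8 of the 10 genes, with none for Hmox1 or Gsr, and 3 of the 8 genes held a match. Counted by promoter, 3 of the 9 listed for these genes held the core, beside 12.1% of all 33469 promoters. Sequence farther from the start was not searched, so a gene without a match here is not shown to lack the element. The 3 matches are printed here with up to 10 bases on either side. They are read 5′ to 3′ on the strand of the gene, with the match in capitals. The Gclm window lies at chr2:213031953-213031981 on the plus strand with its match read on the opposite strand, the Nfe2l2 window at chr3:81028950-81028971 on the minus strand with its match on the gene's strand just after the start, and the Txnrd1 window, in the second of its 2 promoters, at chr7:22755964-22755992 on the minus strand with its match on the opposite strand.
Gclm: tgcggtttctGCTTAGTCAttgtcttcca
Nfe2l2: gactagccatTGACGCCGCctc
Txnrd1: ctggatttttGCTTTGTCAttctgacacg
A match of these letters describes the window and was not tested for binding.

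Of the 9 genes tested, 1 rose in EP against sham, 1 with Cur/ZNP gel, 1 with ZNP gel and 2 with Cur gel, and none fell. Hmox1 was called in all 4 comparisons and Gsr in Cur gel alone. These counts stand against a background in which 37.6% of all genes tested were called in EP against sham, and 39.7% were with Cur/ZNP gel, 32.1% with ZNP gel and 38.0% with Cur gel. As shares of the 9 members the counts were 22.2% with Cur gel and 11.1% in each of the other comparisons. The median absolute log2 fold change of the members was 0.24 in EP against sham, beside 0.50 over all genes tested. With Cur/ZNP gel it was 0.20 against 0.52, with ZNP gel 0.23 against 0.46 and with Cur gel 0.17 against 0.51. All 4 comparisons share the same sham rats.

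**Figure D1:**
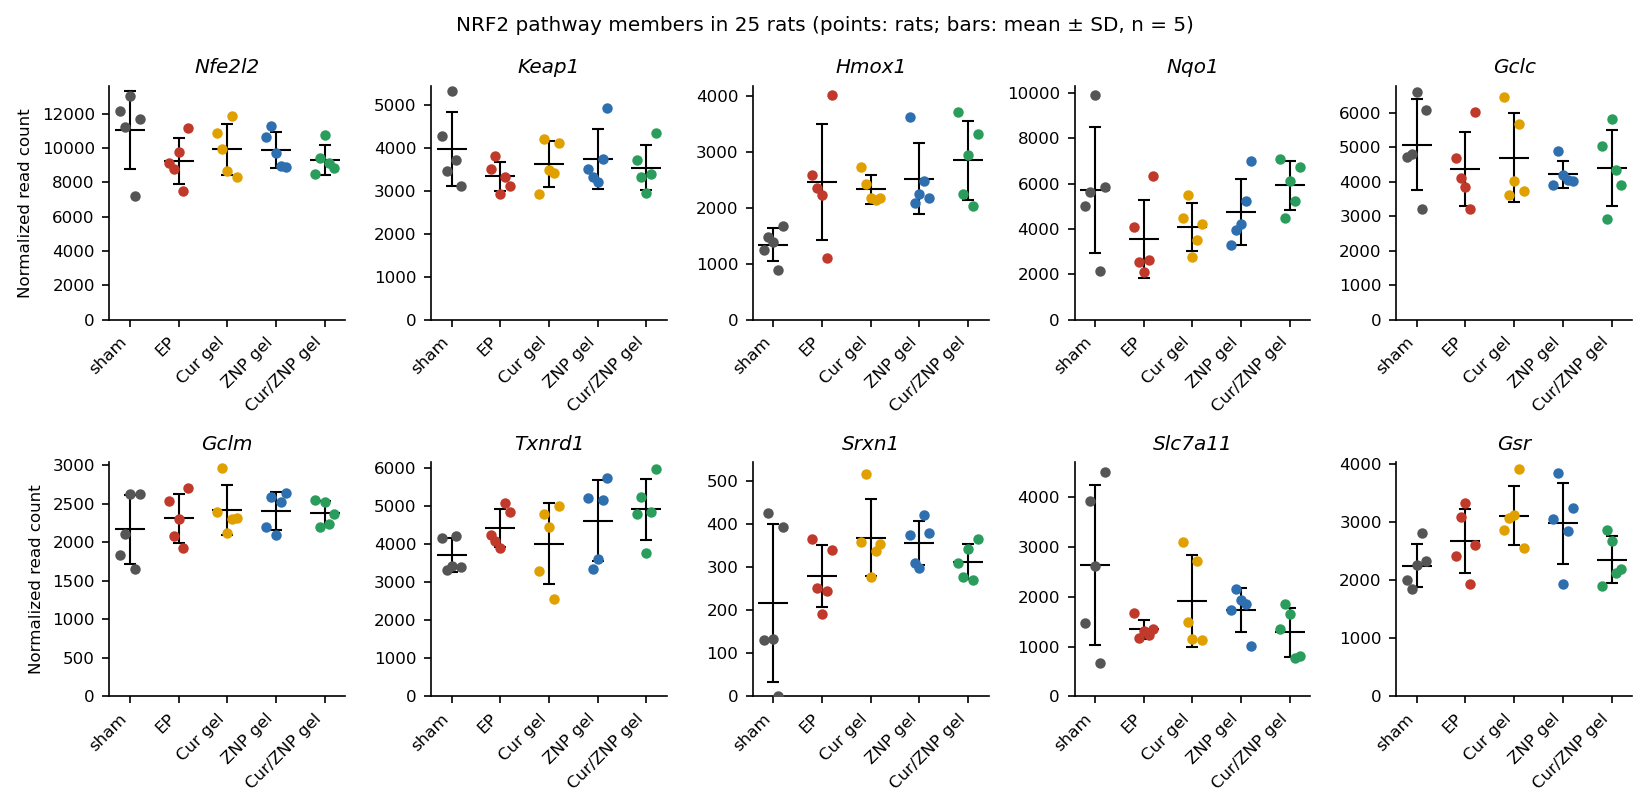
Normalized read count (vertical axis, from 0) of each of the 10 genes in each rat, by group, with points for rats and black bars for mean ± SD (n = 5). Hmox1 in the 15 gel-treated rats lies at 2035.7 or more, above every sham rat (at most 1674.4), while the groups overlap for every other gene. Srxn1 was read from a row matched by gene ID.

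Hmox1 encodes heme oxygenase 1, which breaks heme down to biliverdin, iron and carbon monoxide, and lies at chr19:14508616-14515456 (plus strand, Rnor_6.0). In sham rats 1 to 5 its normalized counts were 1245.5, 1482.0, 1396.4, 890.3 and 1674.4. In EP rats they were 2592.1, 2360.0, 2236.6, 1109.6 and 4017.9. EP 4 fell inside the sham range, the other 4 EP rats lay above it, and EP 5 was the highest of all 25. In Cur gel rats the counts were 2734.8, 2418.4, 2177.5, 2132.8 and 2172.3, in ZNP gel rats 3612.1, 2093.7, 2249.4, 2481.0 and 2168.7, and in Cur/ZNP gel rats 3701.6, 2237.8, 2948.7, 2035.7 and 3309.3. None of the 15 gel-treated rats overlapped the sham group, which was so for 18.7% of all genes with Cur/ZNP gel, 13.8% with ZNP gel and 17.7% with Cur gel.

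Against sham, Hmox1 rose 1.74-fold in EP (log2 fold change 0.80 ± 0.25 SE, limma adjusted p = 0.0155) and 1.77-fold in Cur gel (0.82 ± 0.25, adjusted p = 0.0128). It rose 1.88-fold in ZNP gel (0.91 ± 0.25, adjusted p = 0.00872) and 2.12-fold in Cur/ZNP gel (1.08 ± 0.25, adjusted p = 0.00206). The EP call was lost without EP replicate 5 (0.59, adjusted p = 0.0528) and in a fit of the 2 groups alone (adjusted p = 0.086). In the gel groups it was kept in all 25 fits that left out 1 library and in 10 of the 11 other alternatives. The exception, chosen after seeing the data, left out Sham 1, Sham 3, Sham 4 and Cur/ZNP gel 2 and so kept 2 sham rats, and its log2 fold changes were 0.53, 0.56, 0.65 and 0.89 in the same order of groups and none was called (adjusted p = 0.309, 0.305, 0.271 and 0.106). Sham 2 and Sham 5, the rats that remain there, had the highest Hmox1 counts of the sham group.

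Macrophages, above all those that clear red cells, are a known source of Hmox1. Of the 8 macrophage markers listed, Cd163, the hemoglobin scavenger receptor, and Mrc1, the mannose receptor, rose in all 4 comparisons with sham, by log2 fold changes of 1.72, 2.38, 2.59 and 2.75 for Cd163 and of 1.03, 1.34, 1.71 and 1.88 for Mrc1, again with EP first and Cur/ZNP gel last. Csf1r was called in ZNP gel and Cur/ZNP gel and Adgre1 in ZNP gel, Cd68, C1qa and C1qb were called in none, and Marco was at 0 in every library. The summed level of the list was 5529.5 to 17846.5 for sham rats and 10515.9 to 21819.3 for EP rats, and with Cur/ZNP gel 12777.8 to 22829.4, with ZNP gel 13760.1 to 29637.9 and with Cur gel 11359.5 to 18450.3. Sham 4, with the lowest Hmox1, had the highest macrophage sum of the sham rats. The summed level of the erythroid list, 5 of 6 of whose genes were found, was 3667.5 to 10077.8 in sham and at least 14912.1 in each of the other 20 rats, with Hbb, a hemoglobin chain, higher by log2 fold changes of 2.31 to 2.87 and Alas2, the first enzyme of heme synthesis in red cell precursors, by 3.26 to 3.63. The part of these cell types in the Hmox1 result was not tested.

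**Figure D2:**
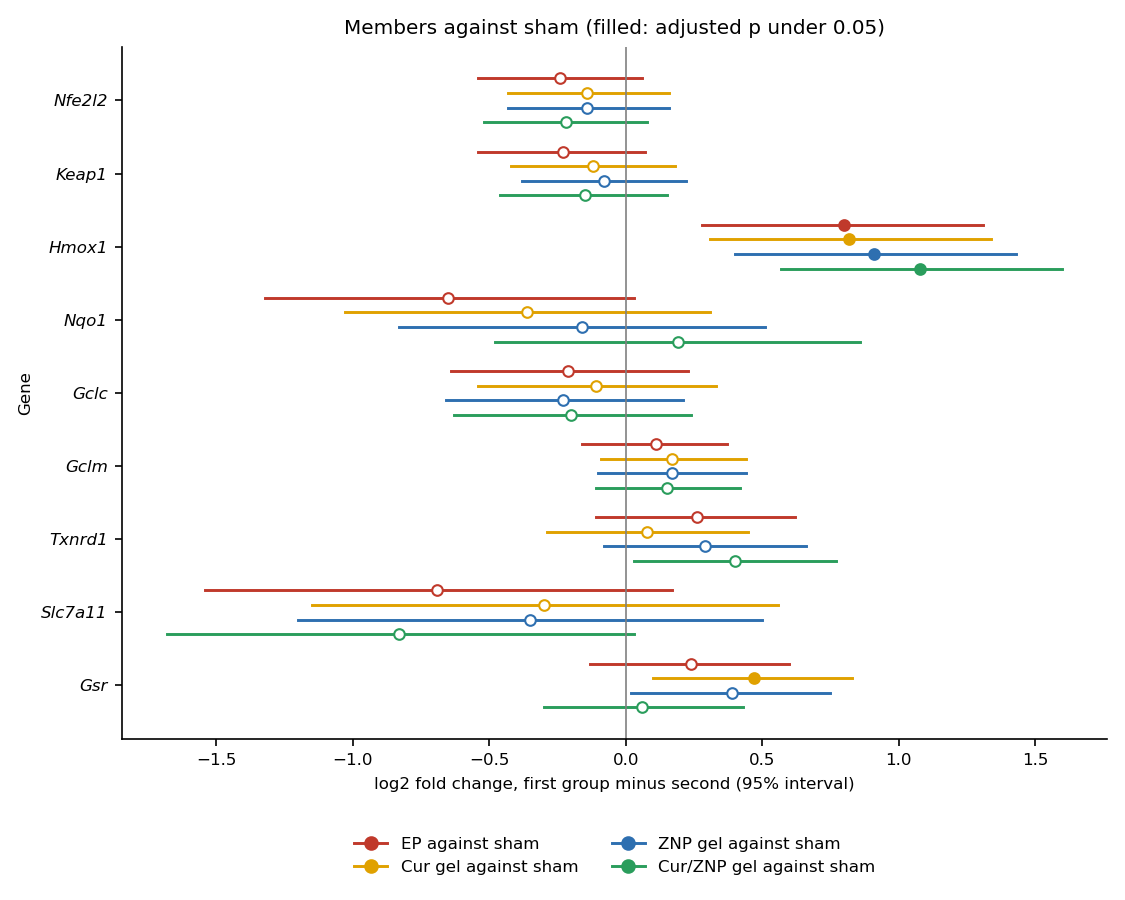
log2 fold change against sham (horizontal axis) of the 9 genes found by symbol, with 95% intervals, in the EP group and each gel group, and filled points where the adjusted p was under 0.05. The 4 Hmox1 points, at 0.80 to 1.08, and Gsr in Cur gel, at 0.47, are the filled ones.

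Nfe2l2 itself lies at chr3:62497571-62524996 (minus strand, Rnor_6.0). Its normalized counts were 12142.4, 11227.1, 13012.5, 7191.4 and 11676.6 in sham rats and 9109.2, 8789.3, 9754.0, 7477.6 and 11149.9 in EP rats. With Cur/ZNP gel they lay between 8508.6 and 10772.2, with ZNP gel between 8882.7 and 11300.6 and with Cur gel between 8334.4 and 11847.5. The other 4 sham rats lay above every EP and Cur/ZNP gel rat, and Sham 4 lay below every other library. The log2 fold change against sham was −0.24 in EP (95% interval −0.54 to 0.06, adjusted p = 0.194), −0.22 with Cur/ZNP gel and −0.14 with either single-agent gel, none of them called. Without Sham 4 it was −0.39 in EP (adjusted p = 0.0162) and −0.37 in Cur/ZNP gel (adjusted p = 0.0215), both called. Without Sham 4, EP 3 and EP 4 the Cur/ZNP gel value was again −0.37 (adjusted p = 0.0185), while the EP value was −0.32 (adjusted p = 0.0752) and not called.

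Keap1, the inhibitor of NRF2, lies at chr8:22250518-22259779 (minus strand). Its normalized counts averaged 3987.8 ± 865.1 in sham, 3344.4 ± 344.6 in EP, and with Cur/ZNP gel 3549.1 ± 522.6, with ZNP gel 3752.3 ± 698.5 and with Cur gel 3633.1 ± 528.7 (SD, n = 5). The group ranges overlapped throughout, and no comparison was called. Keap1 and Nfe2l2 varied little among rats of 1 group, with within-group SDs of 0.23 and 0.22 on the log2 scale beside a median of 0.40 over all genes kept. That median was not matched for level, and it includes genes with low counts.

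Gclc and Gclm encode the catalytic and the modifier subunit of glutamate-cysteine ligase, the rate-limiting enzyme of glutathione synthesis. Gclc, at chr8:85059051-85097468 (plus strand), averaged 5076.1 ± 1322.4 normalized counts in sham and 4367.3 ± 1064.8 in EP, with 4409.7 ± 1100.5 under Cur/ZNP gel, 4218.6 ± 386.3 under ZNP gel and 4700.5 ± 1284.5 under Cur gel. Gclm, at chr2:225827504-225847874 (plus strand), averaged 2167.7 ± 449.6 in sham and 2308.8 ± 317.4 in EP, with gel means of 2373.8 ± 157.7, 2405.4 ± 244.5 and 2418.3 ± 323.7 in that order. Neither subunit was called in any comparison. For Gclm the 95% interval of the log2 fold change in EP against sham was −0.16 to 0.37, the narrowest among the 9 genes, and for Gclc it was −0.64 to 0.23.

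Slc7a11 encodes the cystine transporter of system xc−, which supplies the cysteine for glutathione, and lies at chr2:139453774-139528162 (minus strand). Its normalized counts were 1468.0, 3919.6, 2622.4, 668.7 and 4508.3 in sham rats, a spread from the lowest to the highest value of all 25 libraries. In EP rats they were 1673.7, 1177.9, 1306.5, 1222.4 and 1344.2. Cur gel rats had 3101.5, 1489.8, 1145.7, 2716.1 and 1137.9, ZNP gel rats 1733.0, 2162.0, 1932.7, 1852.9 and 1009.1, and Cur/ZNP gel rats 1362.0, 1865.1, 1654.2, 768.2 and 806.5. Sham 2 and Sham 5 stood above every treated or diseased rat, and Sham 4 below every one. The log2 fold change was −0.69 in EP (95% interval −1.54 to 0.17, adjusted p = 0.196) and −0.83 in Cur/ZNP gel (−1.68 to 0.03, adjusted p = 0.114), neither called. On the recovered reads Slc7a11 was called in Cur/ZNP gel by edgeR (−1.01, adjusted p = 0.0468) and by DESeq2 (−1.02, adjusted p = 0.0268), and in EP by DESeq2 (−0.96, adjusted p = 0.0388). Without Sham 4 the limma values were −1.11 in EP (adjusted p = 0.0185) and −1.25 in Cur/ZNP gel (adjusted p = 0.00963), both called. Without Sham 4, EP 3 and EP 4 Cur/ZNP gel was called (−1.25, adjusted p = 0.0137) and EP was not (−1.05, adjusted p = 0.066). Without Sham 1, Sham 3, Sham 4 and Cur/ZNP gel 2, Slc7a11 was at −1.65 in EP (adjusted p = 0.0179), −1.26 in Cur gel (0.0494) and −1.95 in Cur/ZNP gel (0.00938), all called.

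Nqo1 encodes a quinone reductase that is among the most used markers of NRF2 activity, and lies at chr19:38422164-38437180 (plus strand). Its normalized counts were 5024.0, 5647.8, 9903.6, 2138.3 and 5841.8 in sham rats, 4104.6, 2567.1, 2128.1, 2636.5 and 6333.7 in EP rats and 7090.0, 4470.5, 6099.0, 5234.9 and 6729.7 in Cur/ZNP gel rats. Cur gel rats ranged from 2753.0 to 5513.1 and ZNP gel rats from 3277.1 to 7009.8. All 5 Cur/ZNP gel rats lay above 4 of the 5 EP rats, and EP 5 lay among them. The log2 fold change of Cur/ZNP gel against EP was 0.84 ± 0.33 SE (95% interval 0.16 to 1.51) with an unadjusted p of 0.0172, and it did not pass the correction over all genes (adjusted p = 0.299). Against sham the values were −0.65 in EP (adjusted p = 0.121), 0.19 with Cur/ZNP gel, −0.16 with ZNP gel and −0.36 with Cur gel. Without Sham 4, Nqo1 was at −0.96 in EP (adjusted p = 0.0127), called, and at −0.12 in Cur/ZNP gel, so that this last value turned sign. Without EP replicate 5 the EP value was −0.88 (adjusted p = 0.034). Without Sham 4, EP 3 and EP 4 Nqo1 was at −0.65 in EP (adjusted p = 0.114), not called, and the value of Cur/ZNP gel against EP came down to 0.53 (adjusted p = 0.995).

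Txnrd1 encodes the cytosolic thioredoxin reductase, which keeps thioredoxin reduced with NADPH, and lies at chr7:26946125-26984400 (minus strand). It was summed over 2 transcripts, the lesser of which held between 4.6% (Cur gel 2) and 40.2% (Sham 1) of its counts. Summed normalized counts averaged 3700.6 ± 440.7 in sham, 4417.6 ± 506.6 in EP, and with Cur/ZNP gel 4909.4 ± 802.2, with ZNP gel 4605.8 ± 1057.6 and with Cur gel 4005.4 ± 1051.3. The largest difference from sham, in Cur/ZNP gel, had a log2 fold change of 0.40 (95% interval 0.03 to 0.77) and was not called (adjusted p = 0.0771). It was called with DESeq2 on recovered reads (0.43, adjusted p = 0.0414) and without Cur gel replicate 4 (0.40, adjusted p = 0.047) or Cur/ZNP gel replicate 3 (0.49, adjusted p = 0.039). Skeletal muscle content, described below, differed among the rats, and its part in the Txnrd1 values was not tested.

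Gsr encodes glutathione reductase, which turns oxidized glutathione back to its reduced form, and lies at chr16:62197617-62239987 (minus strand). Its normalized counts were 2004.7, 1848.2, 2261.8, 2819.3 and 2326.9 in sham rats and 2871.7, 3079.0, 3127.4, 3929.9 and 2557.4 in Cur gel rats. ZNP gel rats had 3064.5, 3845.0, 1931.0, 2854.8 and 3241.1. 4 of the 5 Cur gel rats lay above every sham rat, and Cur gel 5 lay below Sham 4. Gsr rose in Cur gel against sham by a log2 fold change of 0.47 ± 0.18 SE (adjusted p = 0.0402), close to the threshold. Among other fits, the call was lost when sham replicate 1, 2 or 3 or Cur gel replicate 2, 3 or 4 was left out (adjusted p = 0.0632 to 0.106 over these 6 fits), with no filter (0.0563), with the 2 groups alone (0.0516), and without Sham 1, Sham 3, Sham 4 and Cur/ZNP gel 2 (0.57, adjusted p = 0.134). In ZNP gel the value was 0.39 (adjusted p = 0.0939), which DESeq2 called (0.42, adjusted p = 0.0496), as did fits without ZNP gel replicate 3 (0.54, adjusted p = 0.0187) and without Sham 4, EP 3 and EP 4 (0.47, adjusted p = 0.0421). Gsr was at 0.24 in EP (0.296) and at 0.06 in Cur/ZNP gel (0.794). The direct difference between Cur/ZNP gel and Cur gel was −0.40 (95% interval −0.77 to −0.04, unadjusted p = 0.0313, adjusted p = 0.393). The salivary gland list, 8 of 9 of whose genes were found, differed in summed level among the groups. Its range was 2746464.1 to 7020350.8 in Cur gel rats, 3696.3 to 2012364.8 in sham rats and 86417.1 to 7879182.1 in EP rats. With ZNP gel it was 152502.6 to 5121090.4 and with Cur/ZNP gel 2307.4 to 4607303.1. The part of salivary gland content in the Gsr values was not tested.

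Srxn1 encodes sulfiredoxin, which repairs overoxidized peroxiredoxins. The row tied to its NCBI gene is named AABR07054319.1 and lies at chr3:147609095-147632801 on Rnor_6.0, a span much longer than RefSeq gives for Srxn1, so that reads of other transcripts could be in it. Its normalized counts were 130.8, 425.8, 133.7, 0.0 and 395.0 in sham rats and 191.7 to 366.0 in EP rats. With Cur/ZNP gel they were 270.6 to 365.1, with ZNP gel 298.7 to 420.8 and with Cur gel 276.9 to 518.2. Sham 1, Sham 3 and Sham 4, the sham rats with neuron transcripts, lay below all 20 rats with periodontitis, and Sham 2 and Sham 5 lay above most of them. The log2 fold changes against sham were 1.79 in EP, 1.99 with Cur/ZNP gel, 2.17 with ZNP gel and 2.21 with Cur gel, none called (adjusted p = 0.156, 0.112, 0.0937 and 0.0807). They rest on the low sham rats, and largely on Sham 4, whose count was 0.0. Without Sham 4, EP 3 and EP 4 the values were 0.43, 0.41, 0.60 and 0.63 in the same order, none called. Without Sham 1, Sham 3, Sham 4 and Cur/ZNP gel 2 they were −0.59, −0.36, −0.21 and −0.18. Without sham replicate 2 or 5 all 3 gels were called (2.57 to 2.82, adjusted p = 0.0267 to 0.0444).

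Among the periodontitis groups the question was whether a gel moved the pathway away from EP, and none of the 9 genes was called in any gel against EP or in any of the 3 comparisons of gels. The background was 0.0% in Cur gel against EP, 0.00621% in ZNP gel against EP, 0.0% in Cur/ZNP gel against EP, and 0.0% in Cur/ZNP gel against Cur gel, Cur/ZNP gel against ZNP gel and ZNP gel against Cur gel, from limma, so a count of 0 is at the background. Over all genes 284, 481, 2054, 1780, 818 and 183 had an unadjusted p under 0.05 in this order of comparisons, edgeR called 0 in each, and DESeq2 called 82, 63, 205, 5, 24 and 12, none a member. Of the members, Nqo1 in Cur/ZNP gel against EP and Gsr in Cur/ZNP gel against Cur gel had an unadjusted p under 0.05.

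For Hmox1 the log2 fold change against EP was 0.29 with Cur/ZNP gel (95% interval −0.23 to 0.80), 0.12 with ZNP gel (−0.40 to 0.63) and 0.03 with Cur gel (−0.49 to 0.54). These intervals leave room for a difference of either sign. Within-group spread differed by gene, from an SD of 0.20 on the log2 scale for Gclm to 0.68 for Slc7a11, so that the same change was less detectable for Slc7a11 and Nqo1 (0.54) than for Gclm or Nfe2l2.

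**Figure D3:**
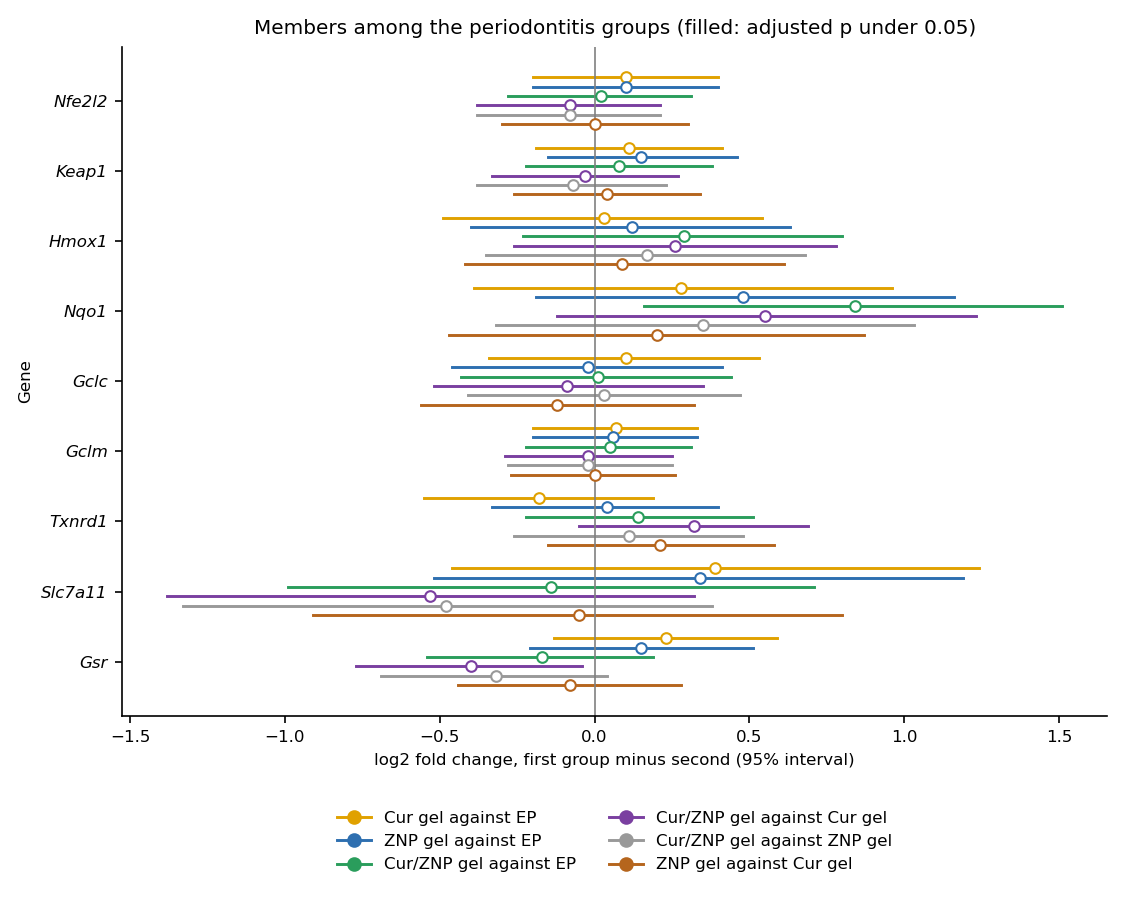
log2 fold change (horizontal axis, first group minus second) of the 9 genes found by symbol with 95% intervals in the 3 gels against EP and the 3 comparisons of gels, with filled points reserved for an adjusted p under 0.05. No point is filled, and Nqo1 in Cur/ZNP gel against EP, at 0.84, lies farthest to the right.

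Beyond the 10 genes, 6 lists of pathway genes were counted in the same fit. Of 16 partners and regulators of NRF2, 8 rose and 1 fell in EP against sham, 56.2% of the list beside the 37.6% of all genes tested. Over the 6 lists together 25 of 61 genes were called, or 41.0%. Among the partners and regulators, the 3 with the smallest p were Nfe2l1, Gsk3b and Rxra. Nfe2l1, a related transcription factor of the proteasome and stress response, rose by a log2 fold change of 1.86 ± 0.36 SE (adjusted p = 0.000679). Gsk3b, a kinase that helps degrade NRF2 without KEAP1, rose by 0.97 ± 0.24 (adjusted p = 0.00376). Rxra, a nuclear receptor that can repress NRF2, rose by 1.68 ± 0.44 (adjusted p = 0.0057). Nfe2l1 was at 2147.1, 5826.5, 2053.4, 1557.0 and 4727.5 normalized counts in sham rats and at 7387.7 or more in every EP rat. Of 10 skeletal muscle markers, 7 were tested and 6 rose in EP against sham. The list median was 3.45 on the log2 scale. The summed level of these markers was 19129.9 to 339623.2 in sham rats and 328752.1 to 1704321.0 in EP rats. Cur gel 1 and Cur gel 4, with muscle sums of 53886.8 and 7530.2, had Nfe2l1 at 6152.1 and 6221.2, against 11054.2 to 16052.5 in the other 3 Cur gel rats, whose sums were 1010481.3 or more. Other rats went the other way. Sham 1 had a higher muscle sum (339623.2) than EP 3 (328752.1), with Nfe2l1 at 2147.1 against 7387.7. Cur gel 4 had a lower muscle sum than every sham rat and a higher Nfe2l1. The part of muscle in these values was not tested. Rxra was at 1063.0, 4223.6, 722.5, 335.4 and 3717.3 in sham rats and Gsk3b at 660.2, 1877.6, 936.2, 542.7 and 1818.9. For both, Sham 2 and Sham 5 lay within the EP range, and the 3 sham rats with neuron transcripts lay far below it. Both calls were lost with the 2 groups alone (adjusted p = 0.0816 for Rxra and 0.0655 for Gsk3b). Without those 3 rats and Cur/ZNP gel 2, none of the 3 was called in EP against sham, with log2 fold changes of 0.98 for Nfe2l1 (adjusted p = 0.138), 0.13 for Gsk3b (0.52) and 0.09 for Rxra (0.792). Against sham the list counted 7 genes up and 4 down with Cur/ZNP gel, 7 up and 2 down with ZNP gel and 8 up and 3 down with Cur gel. These are 68.8%, 56.2% and 68.8% of the list, beside 39.7%, 32.1% and 38.0% of all genes.

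Of 18 genes of glutathione supply and conjugation, 16 were tested, and 3 rose and 4 fell in EP against sham, 43.8% of those tested beside 37.6% of all genes. Gsta1, a glutathione S-transferase, rose by 1.23 ± 0.25 (adjusted p = 0.00101), while Gsta4 fell by 1.24 on the log2 scale (adjusted p = 0.00119) and Gss, glutathione synthetase, fell by 0.66 (adjusted p = 0.00132). Gsta1 lay between 908.0 and 1813.4 in sham rats and at 2324.7 or more in every EP rat. The transferases are close paralogs, between which shared reads may be split.

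Among 6 thioredoxin and peroxiredoxin targets, 1 rose and 2 fell, so that 3 of 6 were called beside 37.6% of all genes. Prdx1, a peroxiredoxin that reduces hydrogen peroxide, fell by 0.84 on the log2 scale (adjusted p = 0.000917), Txn1, thioredoxin, fell by 1.00 (adjusted p = 0.0032) and Osgin1 rose by 0.84 (adjusted p = 0.0191). Among 8 heme and iron targets, 1 rose and 1 fell, so that 2 of 8 were called. Slc40a1, the iron exporter ferroportin, rose by 1.66 ± 0.40 (adjusted p = 0.00321) and Ftl1, the ferritin light chain, fell by 1.09 on the log2 scale (adjusted p = 0.000874). Slc48a1, a heme transporter, was at 0.40 (adjusted p = 0.112). Fth1, the ferritin heavy chain, was at −0.12 (adjusted p = 0.751) and Blvrb at 0.05 (adjusted p = 0.857). Blvrb and Fth1 were named after their values were seen. Ftl1 was again split in the sham group, at 1291.7 and 1383.5 in Sham 2 and Sham 5 and at 2495.1 to 3551.0 in the other 3. Without the 3 sham rats with neuron transcripts and Cur/ZNP gel 2, Prdx1 was at −0.43, Txn1 at −0.68, Osgin1 at 0.98, Slc40a1 at 0.94, Ftl1 at −0.39 and Gss at −0.43, and none of them was called.

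Of 5 genes of NADPH supply, 4 were tested, and 1 fell in EP against sham, so that 1 of 4 was called beside 37.6% of all genes. Tkt, transketolase, fell by 0.33 on the log2 scale (adjusted p = 0.0402), while Idh1, an NADPH-forming isocitrate dehydrogenase, was at 0.40 (adjusted p = 0.132) and Taldo1, transaldolase, at −0.07 (adjusted p = 0.819). Of 12 quinone, aldehyde and carbonyl targets, 11 were tested, and 1 rose and 2 fell, or 27.3%. Ephx1, epoxide hydrolase, rose by 1.22 ± 0.33 (adjusted p = 0.00639) and the carbonyl reductases Cbr1 and Cbr3 fell by 0.59 and 0.85 on the log2 scale (adjusted p = 0.0105 and 0.0384). Tkt and Cbr3 each lost the call without sham replicate 1 or 3 or EP replicate 2, 3 or 4 (adjusted p up to 0.142 for Tkt and 0.132 for Cbr3), and Cbr3 also without sham replicate 2 or 5. Osgin1 lost it without sham replicate 1 or EP replicate 2 or 3 (up to 0.0564). Without the 3 sham rats with neuron transcripts and Cur/ZNP gel 2, Tkt was at −0.29 (adjusted p = 0.148) and Cbr1 at −0.14 (0.597), neither called, while Gsta1, Gsta4, Ephx1 and Cbr3 were still called. With the 2 groups alone Ephx1 (adjusted p = 0.0871), Cbr1 (0.0887), Cbr3 (0.147), Tkt (0.11) and Osgin1 (0.0576) were not called, nor were Cbr3 (0.0533) and Tkt (0.0556) with no filter. Without Sham 4, EP 3 and EP 4, Osgin1 was at 0.71 (adjusted p = 0.0833), Tkt at −0.38 (0.0578) and Cbr1 at −0.53 (0.0576), none called. No list had a gene called among the periodontitis groups.

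**Figure D4:**
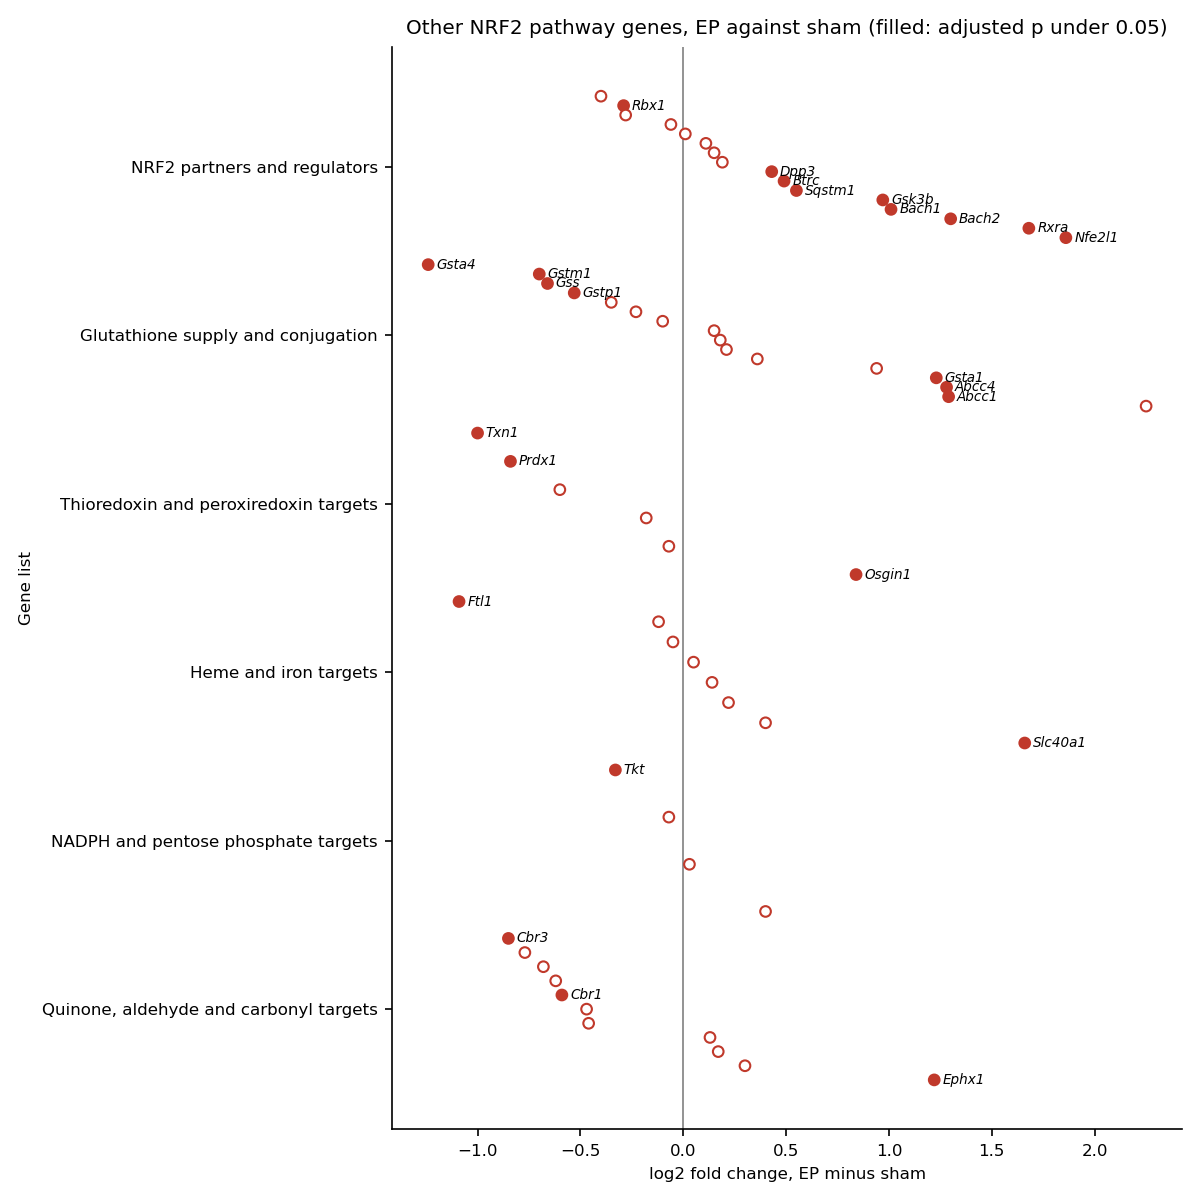
log2 fold change of EP minus sham (horizontal axis) for the genes of the 6 pathway lists, 1 row of points per list, with filled and named points where the adjusted p was under 0.05. Genes of each list but NADPH supply lie on both sides of 0 among the filled points, from Gsta4 at −1.24 to Nfe2l1 at 1.86.

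How the members varied with Nfe2l2 among rats of the same group was read from their deviations from the group means over 25 libraries. By 100000 permutations of the libraries within groups, adjusted over the 9 other members, 4 were called. Gclc varied with Nfe2l2 (Pearson r = 0.734, adjusted p = 0.00423, Spearman rho = 0.662, adjusted p = 0.0125), as did Slc7a11 (r = 0.675, adjusted p = 0.0106, rho = 0.62, adjusted p = 0.0125). Hmox1 did so by r (0.529, adjusted p = 0.0253) but not by rho (0.406, adjusted p = 0.114), and Txnrd1 varied against it (r = −0.559, adjusted p = 0.00936, rho = −0.6, adjusted p = 0.0125). Without Sham 4 and EP 4, the 2 libraries farthest from the median of Nfe2l2, r was 0.619 for Gclc, 0.522 for Slc7a11, 0.268 for Hmox1 and −0.582 for Txnrd1, so the Hmox1 relation rests on those 2 libraries. Without Sham 4, EP 3 and EP 4 (n = 22) none of the members passed the correction, although r was 0.614 for Gclc (permutation p = 0.0117, adjusted p = 0.0841), −0.599 for Txnrd1 (p = 0.0187, adjusted p = 0.0841), 0.475 for Slc7a11 (p = 0.0452, adjusted p = 0.136) and 0.208 for Hmox1 (p = 0.39, adjusted p = 0.524).

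Over the log2 values of all 25 libraries, the genes most like Nfe2l2 among 15451 ranked were Tfap2b (Pearson r = 0.871), Pitx1 (0.851), Anxa7 (0.843), AABR07031193.1 (0.843) and Rab25 (0.839). Gclc ranked 137 with r = 0.74 and Slc7a11 ranked 201 with r = 0.721. At the other end, Txnrd1 ranked 15026 with r = −0.603. The libraries differ in summed keratinocyte markers, from 153038.8 in Sham 4, the lowest of all 25, to 1955761.1 in Sham 3. Sham 4 was also the library with the lowest Nfe2l2. That sum mixes markers that moved in opposite directions. From sham to EP the median went from 343584.0 to 72506.7 for Krt5 and from 349871.9 to 77333.6 for Krt14. It went from 81088.2 to 159322.4 for Krt4 and from 129030.8 to 200583.6 for Krt13. Krt1, Krt10, Tp63, Dsp and Dsg3 had lower medians in EP. The libraries also differ in skeletal muscle content. Its summed markers ran from 7530.2 in Cur gel 4, which had the lowest Txnrd1 of all 25 (2544.2), to 2756750.7 in ZNP gel 5, with Txnrd1 at 5722.8. Sham 4, with a muscle sum of 21710.5, had the highest Txnrd1 of the sham rats (4203.5). The part of epithelial and muscle content in these relations was not tested.

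**Figure D5:**
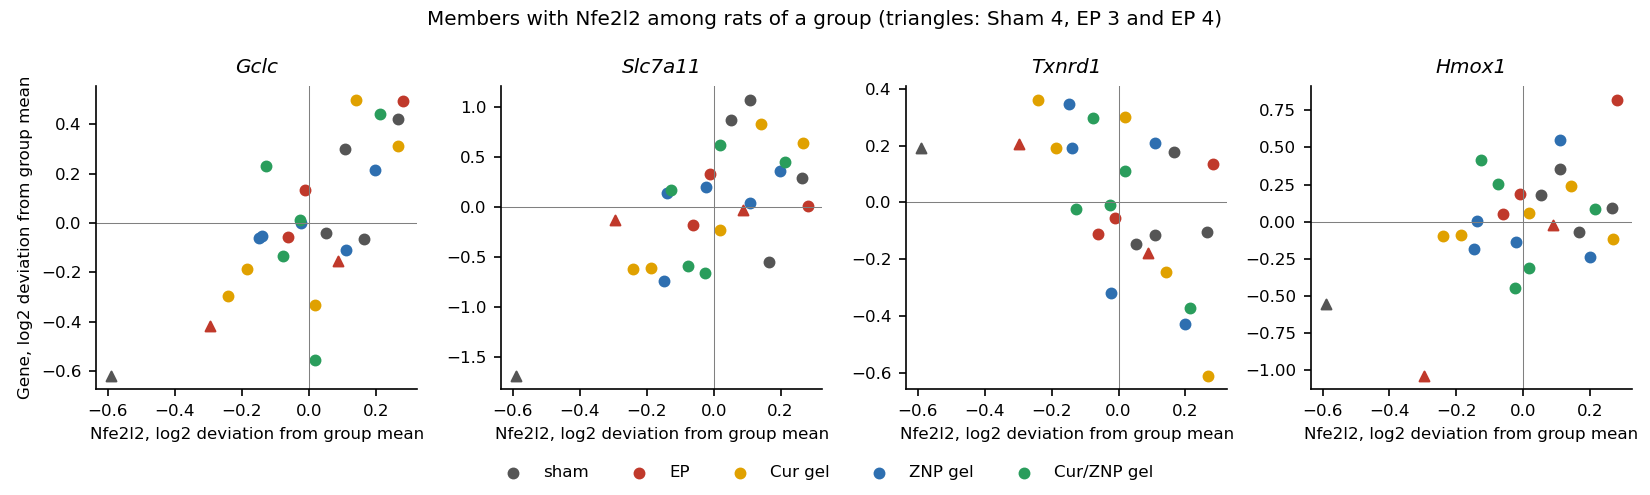
log2 deviation from the group mean of Gclc, Slc7a11, Txnrd1 and Hmox1 (vertical axes) against that of Nfe2l2 (horizontal axes), 1 point per rat (n = 25), coloured by group, with triangles for Sham 4, EP 3 and EP 4. Gclc and Slc7a11 rise with Nfe2l2 (r = 0.734 and 0.675), Txnrd1 falls (r = −0.559), and the Hmox1 relation (r = 0.529) leans on the 2 lowest triangles.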

How the data were processed

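RNA-seq was run on gingiva of 25 rats, 5 per group by their titles. The table the authors deposited holds, per Ensembl transcript of Rnor_6.0, read counts divided by size factors (DESeq2 in the submitters' processing notes); the aligner is not given in the sources used here. This deposited signal gave whole reads in all 25 libraries (tolerance 0.01), which set the depth of each library. A gene was the sum of its transcripts, and genes of at least 2 CPM in at least 1 library were kept.

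As the values were normalized, the fit was limma 3.58.1 (R 4.3.3, robust variance trend) on log2(normalized count + 1), with all 5 groups in 1 model, Benjamini-Hochberg adjustment over the 16092 genes and a two-sided threshold of 0.05. Fold changes are on that scale, where the added 1 shrinks those of genes that are low throughout. A count of 0 in 1 library can enlarge them instead. For the row of Srxn1, EP against sham was at 1.79 although the means were 279.1 in EP and 217.1 in sham. edgeR 4.0.16 and DESeq2 1.42.0 on the recovered reads, other filters and pseudocounts, 2 groups alone and left-out libraries were alternatives. Scripts were tested on simulated data. The p-values measure the spread between these rats.

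The members and lists were chosen with earlier results of these data known. Named pathway genes are the 3 of each list with the smallest p in EP against sham, besides Blvrb and Fth1, named after their values were seen. The genes most like Nfe2l2 are the 5 with the highest r among genes with a mean log2 value of at least 5. Levels were not compared between genes, as transcript lengths were not used here. 1 gene of the NADPH list is not reported here.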

Additional observations from a re-analysis of the deposited data

Results flagged for a closer look

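Of 50 sets of 5 rats (10 genes in 5 groups), 2 had a rat far from the other 4 by Dixon's test, where chance gives about 5% of sets. Both were in Sham 4. Nfe2l2 was at 7191.4 normalized counts there, with a gap of 0.751 of the range of the sham group, and the row of Srxn1 was at 0.0, with a gap of 0.806. Sham 4 also had the lowest summed keratinocyte markers of all 25 libraries (153038.8), and 21.8% of its reads came from nasal gland genes. The part of either in these values was not tested.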

How the results depend on the processing

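The sham group limits these results, since 3 of its 5 rats carried neuron transcripts and 1 of these also nasal gland transcripts. The count of members called in EP against sham was 1, against 2 with DESeq2 and 0 with the 2 groups alone. In Cur gel it was 2, against 1 with no filter, with the 2 groups alone, with the replicate block and without Sham 1, Sham 3, Sham 4 and Cur/ZNP gel 2. In ZNP gel it was 1, against 2 with DESeq2 and without Sham 4, EP 3 and EP 4, and 0 without Sham 1, Sham 3, Sham 4 and Cur/ZNP gel 2. In Cur/ZNP gel it was 1, against 2 with edgeR (TMM or RLE), 3 with DESeq2 and 3 without Sham 4, EP 3 and EP 4. Leaving out 1 library gave 1 to 4 calls in EP (4 without sham replicate 4), 1 to 2 each with Cur gel and ZNP gel (2 in ZNP gel without ZNP gel replicate 3), 1 to 3 in Cur/ZNP gel (3 without sham replicate 4) and 0 to 0 in each of the other 6 comparisons. The 4 members called with Nfe2l2 became 0 without Sham 4, EP 3 and EP 4, with r of 0.614 for Gclc, −0.599 for Txnrd1 and 0.475 for Slc7a11 over the 22 libraries left. The cause was not tested.

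Of the values given in the text, those that turned sign were, without Sham 1, Sham 3, Sham 4 and Cur/ZNP gel 2, Keap1 against sham at 0.12 with Cur/ZNP gel, 0.17 with ZNP gel, 0.13 with Cur gel and 0.02 in EP, Srxn1 at −0.36, −0.21, −0.18 and −0.59 in the same order, and Gclm at −0.04 and Taldo1 at 0.22 in EP against sham. Without Sham 4, EP 3 and EP 4, Nqo1 was at −0.12 in Cur/ZNP gel against sham, and Hmox1 against EP was at −0.07 with Cur/ZNP gel, −0.24 with ZNP gel and −0.33 with Cur gel. Hmox1 in Cur gel against EP was also at −0.10 with edgeR TMM, −0.09 with edgeR RLE and −0.09 with DESeq2. Leaving out 1 library gave ranges that crossed 0 for Keap1 in ZNP gel against sham (−0.18 to 0.03), Nqo1 in ZNP gel against sham (−0.48 to 0.08), Nqo1 in Cur/ZNP gel against sham (−0.12 to 0.43), Txnrd1 in Cur gel against sham (−0.01 to 0.23), Gsr in Cur/ZNP gel against sham (−0.01 to 0.15), Hmox1 in Cur gel against EP (−0.23 to 0.23), Hmox1 in ZNP gel against EP (−0.14 to 0.32) and Taldo1 in EP against sham (−0.25 to 0.11). None of these was called in the full data. Among the periodontitis groups, 12 of 54 differences of the members turned sign in an alternative other than leaving out 1 library, among them Nqo1 (range −0.03 to 0.28) and Gclc (range −0.09 to 0.10) in Cur gel against EP. The replicate numbers did not pair the rats: same-numbered libraries correlated at a median of −0.00735 (50 pairs), other pairs at −0.0256, and 7 of 25 libraries correlated best with their own number. The replicate block moved the count of calls in EP against sham from 6057 to 5974 over all genes and ended 1 member's call, Gsr in Cur gel against sham (adjusted p = 0.0534).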
